A study of Mus musculus with 10 samples.

Results

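Dorsal root ganglia (DRG) of mouse embryos at E18.5 were examined for the 4 LGI genes, *Lgi1*, *Lgi2*, *Lgi3* and *Lgi4*, and for the 3 genes of their ADAM receptors, *Adam11*, *Adam22* and *Adam23*. These 7 genes were taken by symbol from the 55414 genes counted in each library. *Lgi2* entered with its small p-value between the groups known, so its difference between the groups is described and carries no test. Bulk RNA-sequencing covered 5 *WD1* cKO embryos and 5 controls, which the study calls littermates. *WD1* cKO stands for *Wnt1*Cre/+; *Dach1* flox/flox, in which Cre acts under *Wnt1*, that is in the neural crest from which DRG neurons and glia derive, and removes a floxed exon of the transcription factor gene *Dach1*. Control embryos had no Cre and, as the genotype entries give them, *Dach1* flox/flox alleles, which both groups share. The entries name the genotypes the other way round from the titles, and the titles were followed.

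LGI proteins are secreted proteins made of leucine-rich repeats and EPTP repeats. They bind ADAM11, ADAM22 and ADAM23, members of the ADAM family that lack protease activity and act as receptors at the cell surface. LGI1 joins ADAM22 at synapses of the brain, where the complex reaches PSD-95 and AMPA receptors, and loss of LGI1 causes epilepsy. On axons, LGI and ADAM proteins take part in placing Kv1 potassium channels. In peripheral nerves LGI4 is released by Schwann cells and binds ADAM22 on the axon, and myelination is impaired without it.

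Control libraries held 20465132 to 27528784 counts in all, and *WD1* cKO libraries held 19757596 to 34796562. Levels are given in CPM, counts scaled by TMM to a common library size. *Dach1* stood at 35.0 to 41.6 CPM in control and at 19.1 to 20.7 CPM in *WD1* cKO libraries (log2 fold change −0.92, SE 0.050, edgeR adjusted p = 5.48e-06), with no overlap. Markers of neurons summed to 10161 to 12969 CPM and those of Schwann cells and satellite glia to 1552 to 2015 CPM, so both labelled cell types were present. The summed levels of all 8 marker lists overlapped between the groups, those of connective tissue only through control replicate 3 (5827 CPM). The other 4 control libraries had connective tissue markers at 4186 to 4527 CPM and the *WD1* cKO libraries at 4629 to 5438 CPM. All 6 of these markers had log2 fold changes above 0, from 0.040 to 0.22, and none passed (lowest edgeR adjusted p = 1.00). Their part in the differences described here was not tested. Control replicate 3 stood apart, with spinal cord markers at 15.2 CPM, against at most 1.36 CPM elsewhere, and the lowest neuron sum. Of the spinal cord markers, *Slc6a5* averaged 0.978 CPM in control and 0.120 CPM in *WD1* cKO libraries. In the other 4 control libraries all spinal cord markers together summed to 0.110 to 0.483 CPM, so control replicate 3 carried that control mean. In bulk tissue, fewer cells of a type and less RNA per cell cannot be told apart. The labels do not say which libraries share a litter or a batch. *Xist*, made in female cells, had a median of 4.84 CPM in control libraries (3.38 to 1167 CPM). In *WD1* cKO libraries its median was 1062 CPM (3.91 to 1067 CPM). More of the *WD1* cKO than of the control libraries were thus from females, so sex and genotype are partly mixed in the group comparison.

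The start regions of *Lgi2* and *Lgi1* are shown because these ligand genes had the highest and the lowest level of the 4. Each line holds the 250 bases before the start of the gene, 5′ to 3′ on the gene's strand, from RefSeq on GRCm38.p6, at chr5:52566307-52566556 on the minus strand for *Lgi2* and chr19:38264437-38264686 on the plus strand for *Lgi1*. Capitals mark GC boxes (GGGCGG) and CCAAT boxes (CCAAT), read on both strands and allowed to overlap.
Lgi2: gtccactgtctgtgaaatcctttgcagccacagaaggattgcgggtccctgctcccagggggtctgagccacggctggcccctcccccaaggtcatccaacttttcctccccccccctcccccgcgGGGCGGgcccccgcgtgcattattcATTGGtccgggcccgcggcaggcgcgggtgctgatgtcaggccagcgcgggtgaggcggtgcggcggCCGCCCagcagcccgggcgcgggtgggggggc
Lgi1: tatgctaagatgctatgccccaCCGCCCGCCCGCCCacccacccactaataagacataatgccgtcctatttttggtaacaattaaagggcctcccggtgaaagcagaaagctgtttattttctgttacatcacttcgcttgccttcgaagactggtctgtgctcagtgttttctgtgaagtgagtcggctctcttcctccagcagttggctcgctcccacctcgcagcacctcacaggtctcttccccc
The *Lgi2* window held 72.4% G and C, 21 CpG dinucleotides, 2 GC boxes and 1 CCAAT box. The *Lgi1* window held 52.4% G and C, 10 CpG dinucleotides, 3 GC boxes that overlap each other and no CCAAT box. Over 32841 promoters of the same length the median was 52.4% G and C and 6 CpG dinucleotides, and 32.7% held a GC box and 33.9% a CCAAT box. A TATA box (TATAAA), the E-box CACGTG and the CRE TGACGTCA, held by 12.4%, 6.02% and 1.55% of all promoters, had no match in either window. *Adam22* and *Adam23* had 66.8% and 70.4% G and C and none of the 5 motifs. These matches describe the letters in the windows, and their use in DRG was not measured.

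Among the ligands, *Lgi2* was the most abundant. LGI2 is a secreted relative of LGI1, and loss of the gene causes an epilepsy of young dogs. In control replicates 1 to 5 *Lgi2* (ENSMUSG00000039252, chromosome 5) was at 116, 121, 114, 111 and 121 CPM, and in *WD1* cKO replicates 1 to 5 at 138, 134, 128, 135 and 128 CPM. Every *WD1* cKO library was above every control library, with means of 132 ± 4.62 and 117 ± 4.50 CPM (SD, n = 5 each). The log2 fold change was 0.18 (SE 0.036, 95% interval 0.098 to 0.26), a fold of 1.13. This contrast is the one that chose the gene: its unadjusted p, 0.000270, was number 13 of 17490 in order of size in the edgeR fit, and its adjusted p was 0.363. Without control replicate 3 the log2 fold change was 0.17, and with *Xist* as a covariate it was 0.16. Annotated non-coding genes lie across *Lgi2* on both strands, and the strand setting of the counting is not given in the sources used here.

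*Lgi3*, a ligand found with ADAM23 in brain complexes that hold Kv1 channels on axons, was the second of the 4 and the least even. In control replicates 1 to 5 *Lgi3* (ENSMUSG00000033595, chromosome 14) was at 47.1, 52.1, 44.0, 61.6 and 67.4 CPM, and in *WD1* cKO replicates 1 to 5 at 52.4, 55.9, 46.7, 60.9 and 71.5 CPM. The groups overlapped over most of their range, and in both the replicates numbered 4 and 5 were the high ones and number 3 the low one. The log2 fold change between the groups was 0.077 (SE 0.13, 95% interval −0.22 to 0.38, edgeR adjusted p = 1.00), smaller than the spread between replicates. Its sign turned without *WD1* cKO replicate 5, to −0.019. Without any other single library the log2 fold change stayed above 0, from 0.010 (control replicate 3 left out) to 0.17 (control replicate 5 left out). With the replicate number added to the edgeR model the log2 fold change was 0.081. The unadjusted p of that fit was 0.0468 and the adjusted p 0.697, so the difference did not pass. At number 4 the *WD1* cKO library was below the control one, and at the other numbers it was above.

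*Lgi4*, the Schwann cell ligand, was at 17.5, 16.6, 18.3, 19.7 and 20.2 CPM in control replicates 1 to 5. In *WD1* cKO replicates 1 to 5 *Lgi4* (ENSMUSG00000036560, chromosome 7) was at 16.7, 22.7, 19.7, 20.8 and 19.3 CPM. The highest library was a *WD1* cKO one and the lowest a control one, and the groups overlapped (log2 fold change 0.10, SE 0.082, 95% interval −0.085 to 0.29, edgeR adjusted p = 1.00). Leaving out *WD1* cKO replicate 2 gave a log2 fold change of 0.050, leaving out *WD1* cKO replicate 1 gave 0.16, and leaving out control replicate 2 gave 0.068. *Lgi4* overlaps *Fxyd3* on the other strand, so reads of the pair may not have been told apart.

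*Lgi1*, the synaptic ligand, was the lowest of the 7 genes, with 188 to 357 reads per library. It was at 9.16, 9.25, 11.1, 11.8 and 12.3 CPM in control replicates 1 to 5. In *WD1* cKO replicates 1 to 5 *Lgi1* (ENSMUSG00000067242, chromosome 19) was at 8.25, 11.4, 10.5, 12.8 and 10.3 CPM. The *WD1* cKO libraries spanned the whole control range and beyond, and the means of 10.7 ± 1.45 and 10.6 ± 1.66 CPM differed by less than the SD (log2 fold change −0.017, SE 0.12, 95% interval −0.29 to 0.26, edgeR adjusted p = 1.00). The interval leaves room for a difference of about the size seen in *Lgi2*.

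**Figure D1:**
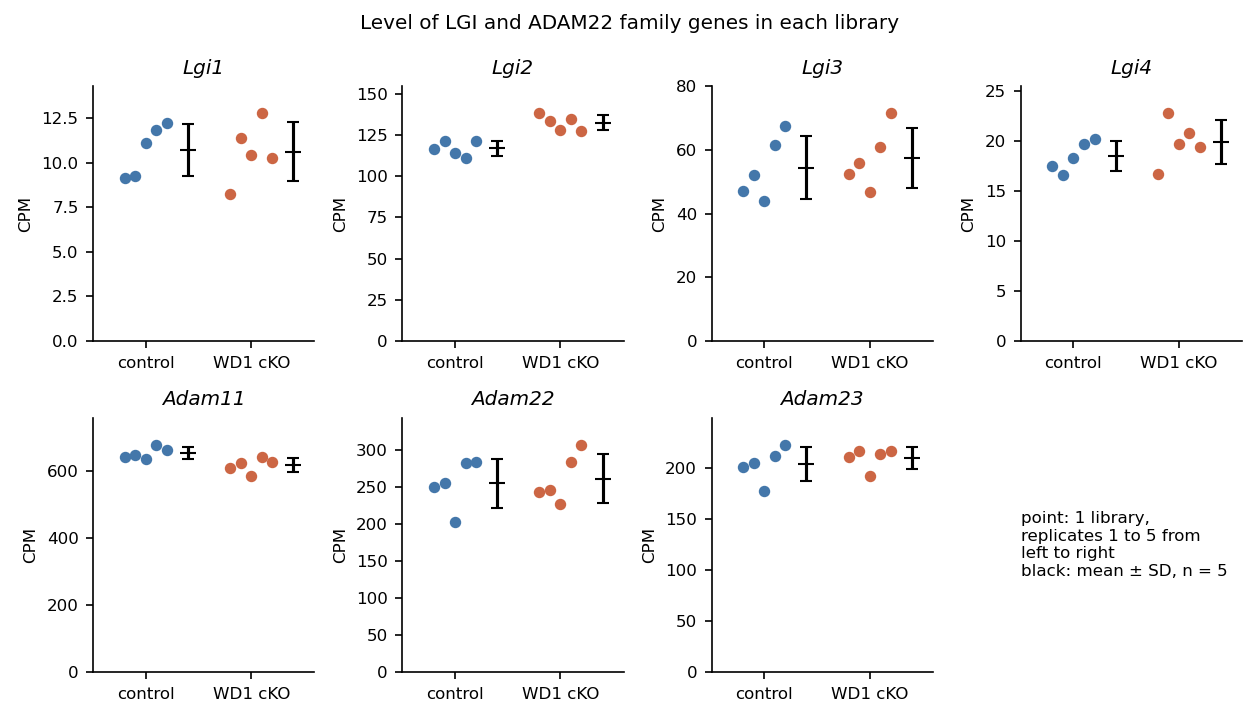
Level of each gene in CPM (vertical axes, from 0) in 5 control (blue) and 5 *WD1* cKO (orange) libraries. Points are libraries, replicates 1 to 5 from left to right, and the black bars give the mean ± SD. *Lgi2* is the gene whose groups do not overlap, and it was chosen on this contrast.

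Among the receptors, *Adam11* was far the most abundant. ADAM11 is needed to place Kv1 channels at inhibitory terminals of the cerebellum. In control replicates 1 to 5 *Adam11* (ENSMUSG00000020926, chromosome 11) was at 643, 646, 637, 678 and 663 CPM, and in *WD1* cKO replicates 1 to 5 at 607, 623, 585, 640 and 628 CPM. The *WD1* cKO libraries lay mostly below the control ones, but replicate 4 of that group was above the lowest control library. Means were 653 ± 16.7 in control and 617 ± 21.1 CPM in *WD1* cKO libraries, a log2 fold change of −0.083 (SE 0.035, 95% interval −0.16 to −0.0015). The unadjusted edgeR p was 0.0366 and the adjusted p 1.00, so the difference did not pass. Of the genes tested, 787, or 4.50%, had an unadjusted p under 0.05. *Adam11* was the next of the 7 after *Lgi2* in order of p, outside the cut-off that *Lgi2* passed.

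*Adam22*, the receptor of LGI1 and LGI4, was at 250, 256, 204, 283 and 285 CPM in control replicates 1 to 5. In *WD1* cKO replicates 1 to 5 *Adam22* (ENSMUSG00000040537, chromosome 5) was at 243, 246, 228, 284 and 308 CPM. As for *Lgi3*, replicates 4 and 5 were high and replicate 3 low in both groups, and the groups overlapped. The log2 fold change was 0.035 (SE 0.098, 95% interval −0.19 to 0.26, edgeR adjusted p = 1.00). Without control replicate 3 the sign turned, to −0.037.

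*Adam23*, a receptor of LGI proteins on axons, was at 201, 204, 178, 211 and 222 CPM in control replicates 1 to 5. In *WD1* cKO replicates 1 to 5 *Adam23* (ENSMUSG00000025964, chromosome 1) was at 210, 216, 191, 213 and 216 CPM. Replicate 3 was the lowest library of each group, and the other libraries lay close together. The log2 fold change was 0.044 (SE 0.056, 95% interval −0.086 to 0.17, edgeR adjusted p = 1.00), and −0.0012 without control replicate 3.

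Against the whole table, 7 of 17490 genes (0.0400%) had an adjusted p under 0.05, and none of the 7 LGI and ADAM genes was among them in edgeR. An unadjusted edgeR p under 0.05 was seen for *Adam11* and *Lgi2*, and for *Lgi3* only with the replicate number in the model (0.0468). DESeq2 gave an adjusted p under 0.05 to 1 of the 7, again *Lgi2*, and since its p in this contrast chose the gene, nothing is read from either count for it. The cut-off of the study, a p under 0.005 with a log2 fold change beyond 0.15 in size, was passed in edgeR by 67 genes (0.383%), and of the 7 by *Lgi2*, which was chosen for it. With DESeq2, the tool named in the study's methods, 78 genes passed it here. The groups did not overlap for 186 genes (1.06%), and of the 7 for *Lgi2*. For the other 6 genes the intervals of the fit without the replicate number put a bound on what could be missed. The widest reached a log2 fold change of 0.38 in size, for *Lgi3*, and the narrowest 0.16, for *Adam11*.

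Levels of different genes were compared per length within each library, on the log2 scale, with an exact two-sided sign-flip permutation test over the 10 libraries. The lengths are the summed exons of each gene in GENCODE M21. Per kb of exon, the mean over 10 libraries was 112 CPM for *Adam11*, 19.1 for *Lgi2*, 18.0 for *Adam22*, 14.4 for *Lgi3*, 11.5 for *Adam23*, 4.17 for *Lgi4* and 0.941 for *Lgi1*. *Adam11* was above *Lgi2* by 2.55 on the log2 scale (SD 0.15, n = 10). *Lgi4* was above *Lgi1* by 2.15 (SD 0.12). Of the 6 pairs of neighbours, 5 were in the same order in 10 of 10 libraries (exact permutation p = 0.00195, the smallest that 10 libraries can give, adjusted p = 0.00234). *Lgi2* and *Adam22* differed by 0.089 (SD 0.20), with *Lgi2* higher in 7 of 10 libraries (exact permutation p = 0.182), which is within the spread.

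Part of this order depended on the length used. The summed exons of *Adam22* and *Adam23* are 14348 and 17907 bases and their coding lengths 3082 and 2669 bases, against 6528 and 1722 bases for *Lgi2*. Per kb of coding length the order was *Adam11*, *Adam22*, *Adam23*, *Lgi2*, *Lgi3*, *Lgi4* and *Lgi1*. *Adam22* was then above *Adam23* by 0.11 (SD 0.11, higher in 8 of 10 libraries, exact permutation adjusted p = 0.0164) and *Adam23* above *Lgi2* by 0.095 (SD 0.11, higher in 8 of 10 libraries, exact permutation adjusted p = 0.0273). The test pools the groups, between which *Lgi2* was chosen to differ. *Lgi2* was above *Adam23* in *WD1* cKO replicates 1 (80.3 against 78.7 CPM per kb) and 3 (74.3 against 71.7), and in no control library. *Lgi3* and *Adam23* also changed places: per kb of exon *Lgi3* was above *Adam23* by 0.30 (SD 0.16) in 10 of 10 libraries, and per kb of coding length it came after *Lgi2*, below *Adam23*. The ends of the order were the same on both scales, with *Adam11* first, *Lgi4* next to last and *Lgi1* last.

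**Figure D2:**
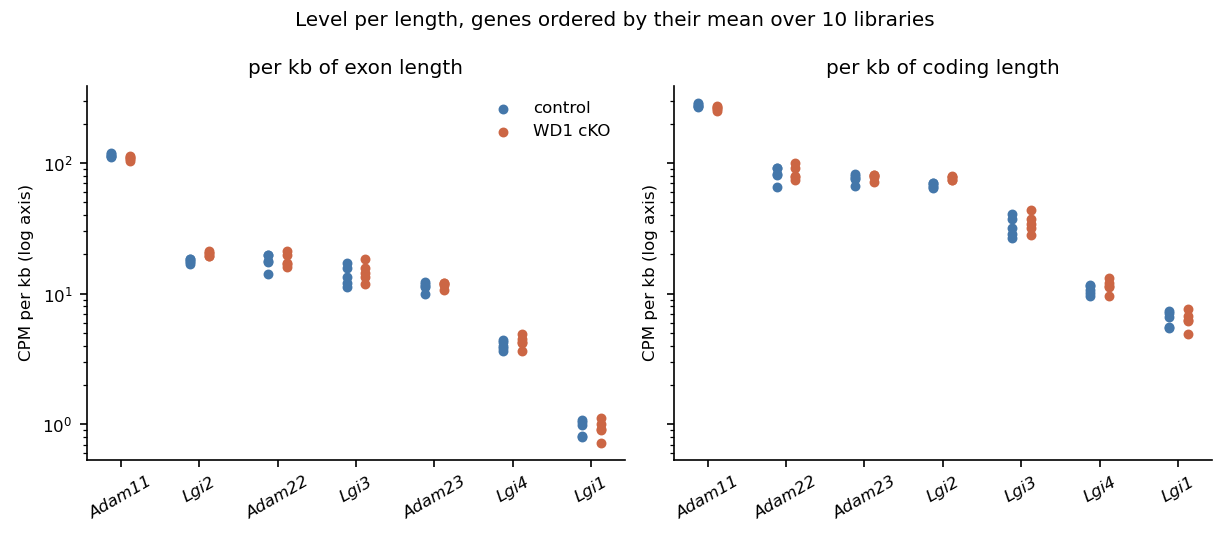
Level in CPM per kb (log axis) of exon length (left) and of coding length (right), with genes ordered by their mean over 10 libraries. Points are single libraries, blue for control and orange for *WD1* cKO. *Adam11* stands above the rest and *Lgi1* below on both scales, while *Lgi2*, *Lgi3*, *Adam22* and *Adam23* change places.

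As a share of the summed level of the 4 ligands per kb of exon, *Lgi2* made up 49.7% ± 3.51 (SD over 10 libraries), *Lgi3* 37.1% ± 3.65, *Lgi4* 10.8% ± 0.931 and *Lgi1* 2.44% ± 0.315. *Adam11* made up 79.1% ± 1.43 of the 3 receptors, *Adam22* 12.7% ± 1.15 and *Adam23* 8.14% ± 0.423. Per kb of coding length the share of *Lgi2* was 58.5% and that of *Adam11* 62.7%. The receptors together were 3.69 ± 0.291 times the ligands per kb of exon and 3.50 ± 0.241 times per kb of coding length. Shares of RNA say nothing of how much protein was present.

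The replicate numbers 1 to 5, which the titles of both groups carry, went with the level of 2 of the 7 genes. In an edgeR fit with group and replicate number, the number term passed for *Lgi3* (F = 38.0, adjusted p = 0.00456) and *Adam22* (F = 16.5, adjusted p = 0.0190). Of all 17490 genes it passed for 524, or 3.00%. It did not pass for *Adam23* (adjusted p = 0.103), *Lgi1* (0.287), *Adam11* (0.619), *Lgi4* (0.668) or *Lgi2* (0.816). The call for *Adam22* was lost when any one of control replicates 3, 4 and 5 was left out, or either of the *WD1* cKO replicates numbered 4 and 5, with adjusted p from 0.0517 to 0.0903. That for *Lgi3* stood in all 10 fits without 1 library, with adjusted p from 0.00310 to 0.0349.

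The libraries numbered 4 and 5 had *Lgi3* at 60.9 to 71.5 CPM in either group, and those numbered 1 to 3 at 44.0 to 55.9 CPM. *Adam22* was at 283 to 308 CPM in the former and 204 to 256 CPM in the latter. Other transcripts moved with the number as well. The 6 blood markers summed to 155 to 243 CPM in the libraries numbered 4 and 5 and to 509 to 2468 CPM in the rest. Endothelial markers summed to 213 to 225 CPM in the former and 237 to 266 CPM in the latter, also without overlap. Glial markers summed to 1822 to 2015 and 1552 to 1840 CPM, and neuronal markers to 11777 to 12969 and 10161 to 12354 CPM. What the number stands for is not given, and the part of these cell types in the levels of *Lgi3* and *Adam22* was not tested.

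**Figure D3:**
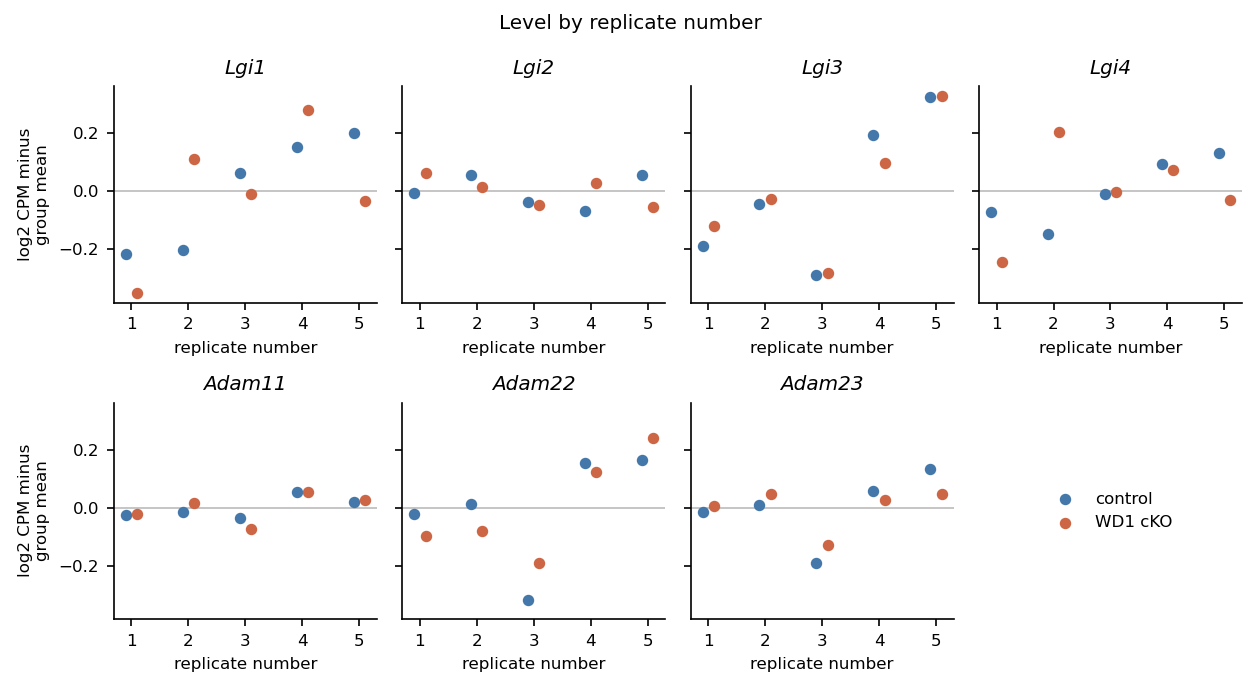
Level of each gene as log2 CPM minus the mean of its group (vertical axis) against the replicate number of the titles (horizontal axis), with control in blue and *WD1* cKO in orange. For *Lgi3* and *Adam22* both groups are high at numbers 4 and 5 and low at number 3, while *Lgi2* and *Adam11* stay near 0.

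The spread within groups differed among the 7 genes. The SD of log2 CPM within groups was 0.25 for *Lgi3* and 0.19 for *Adam22*, higher than in 98.1% and 97.0% of genes within 0.5 log2 of the same level. It was 0.053 for *Lgi2* and 0.044 for *Adam11*, higher than in 31.9% and 10.8% of such genes. *Adam23* had an SD of 0.10, *Lgi4* of 0.14 and *Lgi1* of 0.22.

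*Lgi1* and *Lgi4* ran together over the libraries. All 21 pairs of the 7 genes were compared on log2 CPM centred on the group means, with exact permutation within groups (14400 arrangements, two-sided), a test added after the values were seen. For *Lgi1* and *Lgi4* Pearson's r was 0.885 (exact permutation p = 0.00688, adjusted 0.0321) and Spearman's rho 0.867 (exact permutation p = 0.00750, adjusted 0.0258), n = 10. Without the 2 libraries farthest from the median of *Lgi1* r was 0.870, and centred on the replicate number as well it was 0.901. That centring makes the control and *WD1* cKO values of a number mirror images of each other. The 0.901 thus rests on fewer independent values than 10. *WD1* cKO replicate 1 was lowest in its group for both genes and for the summed glial markers, at 1552 CPM, and *WD1* cKO replicate 4 had the highest glial sum, at 2015 CPM, and the highest *Lgi1*. The highest *Lgi4*, 22.7 CPM, was in *WD1* cKO replicate 2, where the glial sum was 1840 CPM. Among control libraries replicate 1 had the lowest *Lgi1*, while replicate 2 had the lowest *Lgi4* and the lowest glial sum, at 1591 CPM. The part of the glial share in this relation was not tested. No pooled correlation is given for *Lgi3* or *Adam22*, since their libraries fall apart by number. *Adam11* and *Adam23* had r = 0.739 (Spearman's rho 0.830, exact permutation adjusted p = 0.0321 for r). This r was −0.31 once centred on the number, on the same few independent values, so the relation within numbers is not decided.

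Of 10770 genes at a mean of at least 10 CPM, the 5 whose levels ran most like *Lgi2* included *Pcdha7* (r = 0.965), *Slc38a1* (0.925), *Pex7* (0.910) and *Ankrd45* (0.888), over 10 libraries centred on the group means. Those most like *Lgi4* were *Cgref1* (0.964), *Harbi1* (0.961), *Anapc11* (0.941), *Anks1* (0.920) and *Tbc1d9b* (0.916). These are the highest of many values over points that share library and depth, and leaving out single libraries kept 0 to 3 of the 5 names for *Lgi2* and 0 to 4 for *Lgi4*. None of the 10 genes passed between the groups, and their log2 fold changes ran from −0.025 for *Tbc1d9b* to 0.077 for *Ankrd45*.

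The genes that work beside LGI and ADAM proteins were taken as 6 lists of 57 genes, of which *Adam28* was too low to be tested. None of them passed either call rule between the groups in edgeR, which 0.0400% and 0.383% of all genes passed. Of the lists, 2 genes, *Cacng3* and *Rtn4r*, had an unadjusted p under 0.05, as did 4.50% of all genes. DESeq2 gave none of them an adjusted p under 0.05. The 8 Kv1 channel subunits had 4 log2 fold changes above 0 and 4 below, with a median of −0.0053, against 0.00022 over all genes tested. *Kcnab2*, a beta subunit, averaged 384 and 367 CPM in control and *WD1* cKO libraries, and *Kcna2*, an alpha subunit, 240 and 226 CPM. The lowest p of this list was that of *Kcna3* (0.112, log2 fold change 0.27), at 1.01 and 1.22 CPM. The 14 genes of the PSD-95 family, TARPs and AMPA receptors were 7 above 0 and 7 below, with a median of −0.0058. PSD-95 itself, *Dlg4*, averaged 179 and 175 CPM, and the AMPA receptor subunit gene *Gria2* 115 and 119 CPM. The TARP gene *Cacng3* had the lowest unadjusted edgeR p, 0.0265 (adjusted p = 1.00), with 5.22 and 3.90 CPM, followed by *Dlg3* (0.0971).

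Of the 8 axo-glial adhesion genes, 5 were above 0 and 3 below, with a median of 0.023. *Epb41l3*, a cytoskeletal linker of the paranode and juxtaparanode, averaged 621 and 662 CPM, and the paranodal adhesion gene *Cntn1* 519 and 550 CPM, with the lowest p of the list (0.172 and 0.218). Of the 14 Schwann cell and myelin genes, 12 were above 0 and 2 below, with a median of 0.092, while 49.9% of all genes were below 0. That median was 0.059 without *WD1* cKO replicate 4, 0.17 without *WD1* cKO replicate 1, 0.15 without control replicate 4 and 0.14 with *Xist* as a covariate. The myelin genes *Pmp22* and *Mbp* averaged 300 and 219 CPM in control and 320 and 232 CPM in *WD1* cKO libraries. The lowest p belonged to *Egr2*, a transcription factor of myelination (0.179, log2 fold change 0.66, SE 0.46), and to *Mal* (0.206, log2 fold change 0.18, SE 0.14). The replicate number term passed for 4 genes of this list, among them *Egr2*, *Pmp22* and *Prx*, named after their values were seen, with edgeR adjusted p from 0.0133 to 0.0351, against 3.00% of all genes. The glial marker sum overlapped between the groups, at 1591 to 1830 CPM in control and 1552 to 2015 CPM in *WD1* cKO libraries.

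Of 8 other Adam genes tested, which include active proteases, 5 were above 0 and 3 below, with a median of 0.023. *Adam10*, a sheddase, averaged 199 and 203 CPM and *Adam19* 178 and 171 CPM, and the lowest p were those of *Adam9* (0.105) and *Adam17* (0.160). Of the 4 EPTP repeat and LGI1-binding relatives, 3 were below 0, with a median of −0.084. *Rtn4r*, the Nogo receptor gene, averaged 35.9 and 32.2 CPM (log2 fold change −0.16, SE 0.048, edgeR adjusted p = 1.00). Its unadjusted edgeR p, 0.00588, was just outside the cut-off of the study. It passed that cut-off with DESeq2, at 0.00342, and without control replicate 5, at 0.00316. *Adgrv1*, whose product carries EPTP repeats, averaged 3.88 and 4.34 CPM (unadjusted edgeR p of 0.128).

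**Figure D4:**
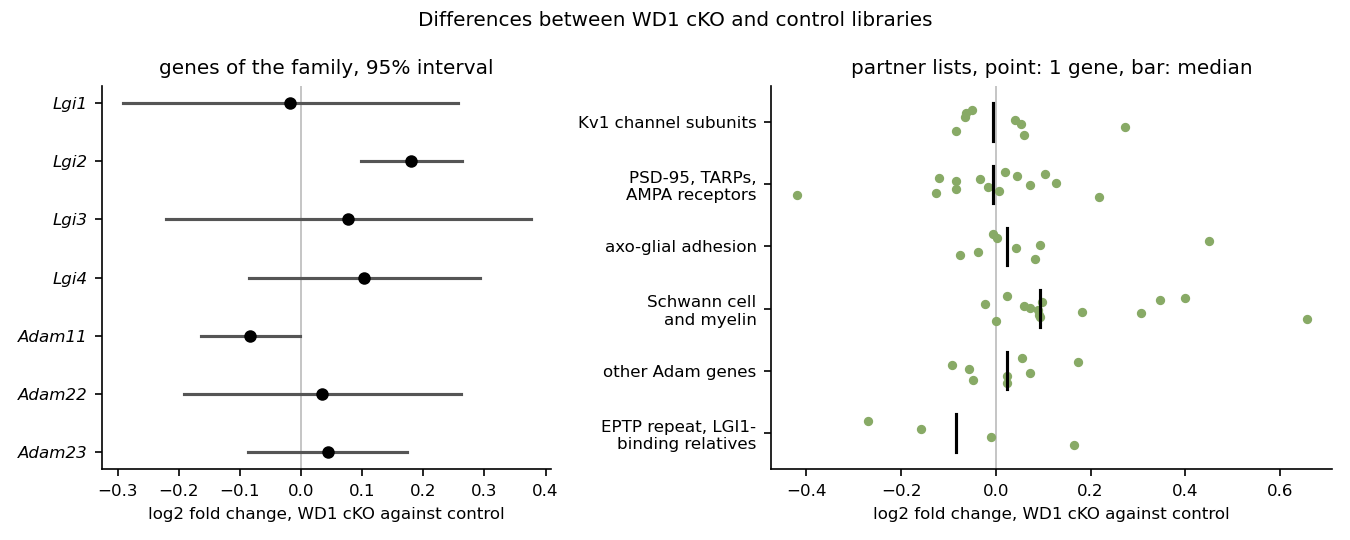
Log2 fold change between *WD1* cKO and control libraries (horizontal axes), with 95% intervals for the 7 genes (left) and single genes with list medians as black bars (right). *Lgi2* was chosen on this contrast and *Adam11* had an adjusted p of 1.00, and the partner lists centre within 0.092 of 0.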

How the data were processed

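Stranded mRNA libraries of E18.5 DRG were sequenced by the authors, who aligned the reads to GRCm39 with STAR 2.7.8a and deposited raw counts per gene from featureCounts 2.0.1. How strand and multi-mapping reads were treated in counting is not given in the sources used here. The 7 genes and the gene lists were chosen with earlier results of these data known.

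The quasi-likelihood test of edgeR 4.0.16 (R 4.3.3) was run on all genes that reached 10 counts in 5 or more libraries, after TMM scaling. The model held the group alone, and p-values were adjusted by Benjamini-Hochberg over the whole table. DESeq2 1.42.0 was an alternative. Beside TMM scaling and the filter, the replicate block, *Xist* as a covariate, robust dispersions and each library left out were tried. CPM was log2 transformed with a prior count of 1. The fits were tested on simulated data: in the group comparison over 17316 genes, edgeR recovered 98% of genes raised by 0.58 on the log2 scale, 86% of those lowered by the same amount and 46% of those raised by 0.26. Each simulated gene had the spread fitted for its level and no replicate number effect, and changed genes had mean counts of at least 100. Within groups *Lgi3* and *Adam22* varied more than 98.1% and 97.0% of genes of like level, *Lgi2* and *Adam11* more than 31.9% and 10.8%. The rates therefore do not carry over to *Lgi3* and *Adam22*.

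Besides the 7 genes, the text names *Dach1*, *Xist*, and, of each list, the genes past a call rule, the 2 with the highest mean CPM and the 2 with the lowest p of each partner list, and the 5 genes most like *Lgi2* and *Lgi4*. A few genes that this rule takes are not reported here. Same-numbered libraries of the groups correlated at 0.32 to 0.39 for 4 of the 5 numbers and at 0.040 for number 2, and other pairs at −0.37 to 0.37. Since 1 pair did not exceed 0.1 and no source says what the number marks, the numbers were not taken as pairs. Library pairs within a group differed by more than sampling noise, at a chi-square of 3.99 to 14.3 per degree of freedom. Resequencing of 1 library would not give this. Each library was taken as 1 replicate because the study describes 5 embryos per group. P-values measure the spread between these embryos. The model of the group comparison left out the number, so its p-values and intervals also carry the spread between numbers. Exon and coding lengths, chromosomes and overlaps are from GENCODE M21 of GRCm38, and promoters from RefSeq, with entries for 4 of the 7 genes (not *Lgi3*, *Lgi4* and *Adam11*). Figures were drawn with matplotlib 3.10.9.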

Additional observations from a re-analysis of the deposited data

Results flagged for a closer look

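In 5 of 32 groups of 5 libraries 1 library stood far from the other 4, where chance gives about 1 in 20. *Adam23* was at 191 CPM in *WD1* cKO replicate 3, against 210 to 216 CPM in the other 4. The other 4 concern summed markers. In control replicate 3 connective tissue markers summed to 5827 CPM (others 4186 to 4527), neuronal markers to 10161 CPM (others 11885 to 12369) and spinal cord markers to 15.2 CPM (others 0.110 to 0.483). In *WD1* cKO replicate 3 muscle markers summed to 105.1 CPM (others 47.8 to 61.2). Control replicate 3 was also the lowest control library for *Lgi3*, *Adam11*, *Adam22* and *Adam23*. The part of these cell types in those levels was not tested.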

How the results depend on the processing

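The 7 genes with an adjusted p under 0.05 between the groups became 4 at a mean count of at least 100, 4 with *Xist* as a covariate, 19 with DESeq2, and 3 to 6 with single libraries left out. Under the study's cut-off 67 genes became 128 without a filter. With the replicate block they became 133, the block leaving 8 genes at an adjusted p under 0.05, and it changed no call of the 7 LGI and ADAM genes. No source says whether the numbers pair the libraries, and 7 of 10 libraries correlated best with their own number. With *Xist* as a covariate the log2 fold change of *Lgi1* became 0.0046, that of *Adam22* −0.011 and that of *Lgi2* 0.16. With single libraries left out it ran from −0.088 to 0.059 for *Lgi1*, from −0.019 to 0.17 for *Lgi3*, from 0.050 to 0.16 for *Lgi4*, from −0.037 to 0.080 for *Adam22* and from −0.0012 to 0.078 for *Adam23*. No partner gene passed the study's cut-off, against 1 (*Rtn4r*) with DESeq2 and 0 to 1 with libraries left out. The median of the EPTP repeat and LGI1-binding relatives went from −0.084 to −0.0082 at a mean count of at least 100, where fewer genes were tested. Of the 6 neighbours in the order of levels, 5 passed, and 0 within control or within *WD1* cKO libraries alone, where the smallest p of 5 libraries is 0.0625. Genes passing the replicate number term, 524, became 2882 without a filter, 793 with the DESeq2 likelihood ratio test and 144 to 742 with libraries left out. The adjusted p of that term for *Adam22* then ran from 0.013 to 0.090, and *Adam23* passed without a filter (0.0093) and with DESeq2 (0.034). Of the 5 genes most like *Lgi2*, 3 remained without a minimum CPM, 0 when centred on the replicate number, and 0 to 3 with libraries left out. For *Lgi4* 0 remained when centred and 0 to 4 with libraries left out. The cause of these shifts was not tested. *Lgi1* had the fewest reads of the 7 genes, 188 to 357 per library.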
